A study of Mus musculus and Mus musculus musculus x Mus musculus castaneus with 52 samples.

Results

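Male (XY) mouse induced pluripotent stem cells were compared with male embryonic stem cells at early passage by RNA sequencing. The comparison took every XY iPSC library at passage 7 (lines LV4, LV8 and LV16) and every XY ESC library of the CM lines at passage 5 (lines CM3 and CM7). This gave 5 of the 24 RNA libraries in the deposited table. They were picked by their labels, with earlier results of these data known. The series studies how the number of X chromosomes affects mouse pluripotent stem cells and holds 52 samples, of which 32 are RNA samples and 20 are chromatin accessibility samples, the latter not analysed here. All 5 libraries are labelled male, wild type and undifferentiated. The iPSC lines are labelled Mus musculus and the CM lines Mus musculus musculus x Mus musculus castaneus, so that strain, derivation, passage and cell type change together between the groups and cannot be told apart. The labels name neither the somatic cell that was reprogrammed nor the growth medium of these RNA samples. Chromatin samples of the same lines were expanded on male feeder cells in serum and LIF and then depleted of feeders. Each library is 1 line, so a p-value below measures the spread between lines.

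Other libraries of the table served as reference points. The same contrast was available in female cells, from 3 XX iPSC libraries at passage 7 (LV20, LV21 and LV22) and 2 XX ESC libraries at passage 5 (CM1 and CM2), with the same strain labels as their male counterparts. V6.5 is a male wild-type ESC line labelled Mus musculus, like the iPSCs, and F121 is a female wild-type line labelled as a musculus by castaneus cross, like the CM lines. Both were grown without feeders in serum and LIF in another experiment and are used at 0 h. The 3 XY iPSC lines were also sequenced at passage 13.

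Reprogramming turns a somatic cell into a pluripotent one by forced expression of transcription factors such as Oct4 (Pou5f1), Sox2, Klf4 and Myc, after which the endogenous pluripotency network is meant to sustain itself. Comparisons of iPSCs with ESCs usually look at the pluripotency network itself, at genes of the cell of origin that stay active (somatic memory), and at imprinted genes, which are expressed from only one parental allele and whose marks can be lost or gained in culture. In mouse iPSCs the Dlk1-Meg3 imprinted domain is the best known of these, because its maternally expressed noncoding RNAs are silent in some lines.

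Values are given as log2 CPM (reads of a gene relative to the library total, on a log2 scale), as the authors deposited them. The lowest possible value, for a gene with no read, is -2.45. The 5 libraries held 8309171 to 12893191 reads. Differences were tested with limma (a linear model with variances shared across genes) over the 4 groups of XY and XX iPSCs and ESCs, and a gene passed the test at a Benjamini-Hochberg adjusted p under 0.05.

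The libraries were first checked against their labels. The XY libraries held 5 Xist reads in all in the iPSCs and 14 in the ESCs. Xist is the RNA that silences an X chromosome in female cells. Of the Y-linked genes, Ddx3y lay at 6.23, 5.48 and 5.55 in LV4, LV8 and LV16, and at 6.12 in CM3, with CM7 above all of them. Uty ran from 4.72 to 5.65 over the 5 libraries and Eif2s3y from 5.27 to 6.47. None of these 3 genes passed the test. On the 5 XY libraries alone Eif2s3y (1.03, limma adjusted p = 0.000436) and Uty (-0.66, limma adjusted p = 0.0216) passed, and with voom on the recovered reads all 3 did. Each was lower in every XX library of both cell types than in every XY library, with a highest XX value of 2.99 for Ddx3y. The Y-linked histone demethylase Kdm5d differed from this pattern. It lay at 3.77, 3.41 and 3.12 in the iPSCs and at 0.47 and 1.61 in the XY ESCs, a difference of 2.39 ± 0.56 (SE, limma adjusted p = 0.00782) that lost its call without CM3 (1.82, limma adjusted p = 0.0956). The XX ESC libraries gave 1.17 and 1.00 and V6.5 gave 1.31. For Kdm5d CM3 thus lay below both XX ESCs, while CM7 lay above both. Zfy1, a Y-linked zinc-finger gene below the test's minimum, had 10, 12 and 15 reads in the iPSCs and 0 in both ESC lines, which is at least 10.3-fold higher against a floor of 3 reads over the group. Among the 5 tested genes of the X-inactivation centre Chic1 rose (0.72), and relative to V6.5 alone it was at -0.060. The defining markers of pluripotent cells, Pou5f1, Sox2, Nanog, Zfp42 and Esrrb, lay between 6.81 and 9.60 in all 5 libraries.

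Every iPSC library was separated from both ESC libraries. Over the 14577 genes tested, the root-mean-square log2 difference was 0.513 to 0.566 between iPSC lines, 0.570 between CM3 and CM7, and 0.933 to 1.02 for the 6 pairs of an iPSC with an ESC library. More than 2-fold differences numbered 953 to 1188 genes within the iPSCs, 1168 between the ESC lines, and 2534 to 3053 between the cell types. The separation did not rest on unnamed gene models: over named genes the cross-type pairs were 0.784 to 0.888 apart, and pairs within a cell type 0.470 to 0.537. In a principal component analysis of the 5 libraries, the first component took 67.7% of the variance and had the 3 iPSC lines at 38.4 to 49.7 and both ESC lines at -63.3 and -63.5.

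**Figure D1:**
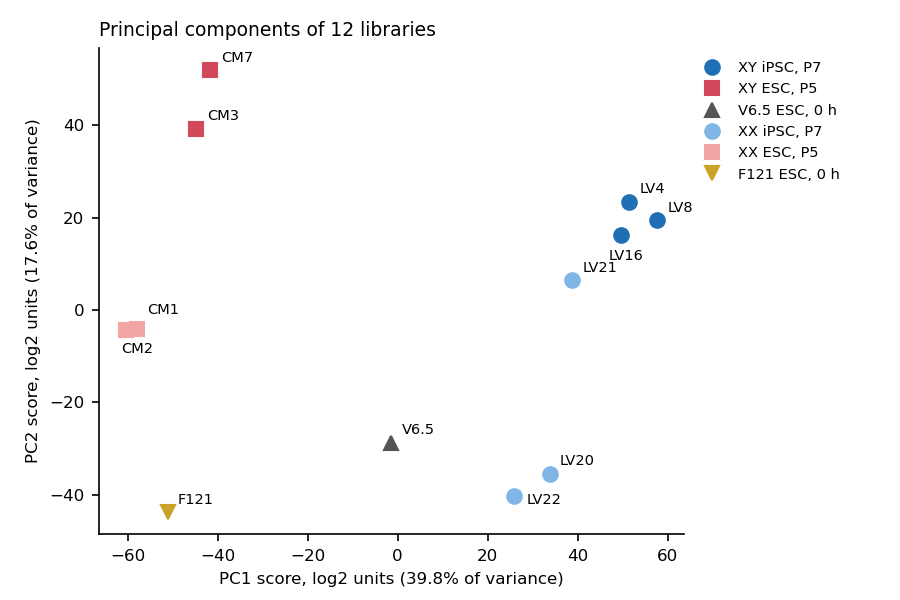
Scores of 12 libraries on the first principal component (x axis, log2 units, 39.8% of variance) and the second (y axis, log2 units, 17.6%) of the genes tested; each point is 1 library and colours mark the groups. The XY iPSCs sit at 49.8 to 57.8 on the first component and the XY ESCs at -44.8 and -41.6, with V6.5 between them at -1.38 and F121 at -51.2.

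V6.5 shares the iPSCs' species label and the CM lines' cell type. Over all genes tested it was about as far from one group as from the other. Its root-mean-square difference was 0.899 to 0.970 from the XY iPSCs and 0.942 to 1.00 from CM3 and CM7. Over named genes alone it was 0.868 to 0.942 from the XY iPSCs and 0.804 to 0.881 from CM3 and CM7. At passage 13 the same iPSC lines lay 0.655 to 0.718 from V6.5 over all genes tested, nearer than at passage 7. Their distance from CM3 and CM7 was then 0.867 to 0.977. One reference library stood apart from its group. LV21, labelled XX, had X-linked genes 0.22 above the XY mean (log2, median), against 0.63 in LV20 and 0.83 in LV22. Its chromosome 8 genes lay 0.37 above the XY mean, against 0.007 in LV20 and -0.05 in LV22. On the second component of the 12-library plot LV21 lay at 6.40, nearer to the XY iPSCs than to LV20 and LV22. On the first component it lay nearest to LV20, at 38.8 against 33.8. It shares in the spread of the fit, and without it 4854 genes passed the XY test.

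The XY comparison called 3815 of the 14577 genes (26.2%), of which 1879 were higher in the iPSCs (12.9%) and 1936 lower (13.3%). In 8037 genes (55.1%) the 3 iPSC libraries all lay above or all below the 2 ESC libraries, and 3813 of the genes called were among them. The ESC arm has only 2 lines, and the count fell to 2177 without CM3 and 2255 without CM7. The female contrast, whose means come from other libraries but whose spread comes from the same fit, called 3198 genes (21.9%). Of these 1640 were higher in the iPSCs and 1558 lower. Of the genes called in the XY contrast 2029 were called in the same direction in XX cells, which is 53.2% of the XY calls and 63.4% of the XX calls, and 9 were called in opposite directions. The difference between the contrasts passed the test in 3 genes (0.0206%), with 1595 at an unadjusted p under 0.05. Both contrasts share the same strain and passage labels, so this overlap does not separate cell type from strain.

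The largest pattern by position was on chromosome 11, where most genes were higher in the iPSCs. It was noticed in these data and is given as a description. Of 1167 tested genes on chromosome 11, 553 rose (47.4%) and 39 fell (3.34%), and the median difference was 0.53 on the log2 scale (1.44-fold). Over the 13410 other tested genes, which include those with no position found, 1326 rose (9.89%), 1897 fell (14.1%), and the median was -0.05. Chromosome 11 thus held 29.4% of all genes higher in the iPSCs. In 971 of its genes (83.2%) the iPSC mean was the higher one.

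The shift had almost the same size in every library. Relative to the mean of the XY groups, the median chromosome 11 gene lay at 0.26 in LV4, 0.27 in LV8 and 0.26 in LV16, and at -0.26 in CM3 and -0.27 in CM7, after subtraction of each library's median over all genes. It was also at 0.22, 0.22 and 0.21 in the XX iPSCs LV20, LV21 and LV22, and at 0.24, 0.22 and 0.25 in LV4, LV8 and LV16 at passage 13. V6.5 gave -0.19, F121 -0.23, CM1 -0.29 and CM2 -0.27. All 6 LV lines were thus on one side and all 6 ESC lines shown on the other, V6.5 included, whose species label is that of the iPSCs. For the remaining 19 chromosomes the medians of the 5 XY libraries stayed between -0.10 and 0.08.

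Along the chromosome the shift was broad. Of 13 windows of 10 Mb with at least 20 tested genes, 12 had medians from 0.37 to 0.66, and the window from 10 to 20 Mb, with 21 genes, had 0.05. The 211 windows of the other chromosomes ran from -0.38 to 0.21. Against V6.5 alone as the ESC reference the chromosome 11 median was 0.46 and 364 genes rose. With chromosome 11 left out of the fit 3107 genes were called, 1277 higher and 1830 lower. DNA copy number was not analysed here. Chromosome 11 genes among those described below are Stat3, Grb10, Col1a1, Sparc, Lhx1, Tex14, Unc45b, Ace and Elobl.

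**Figure D2:**
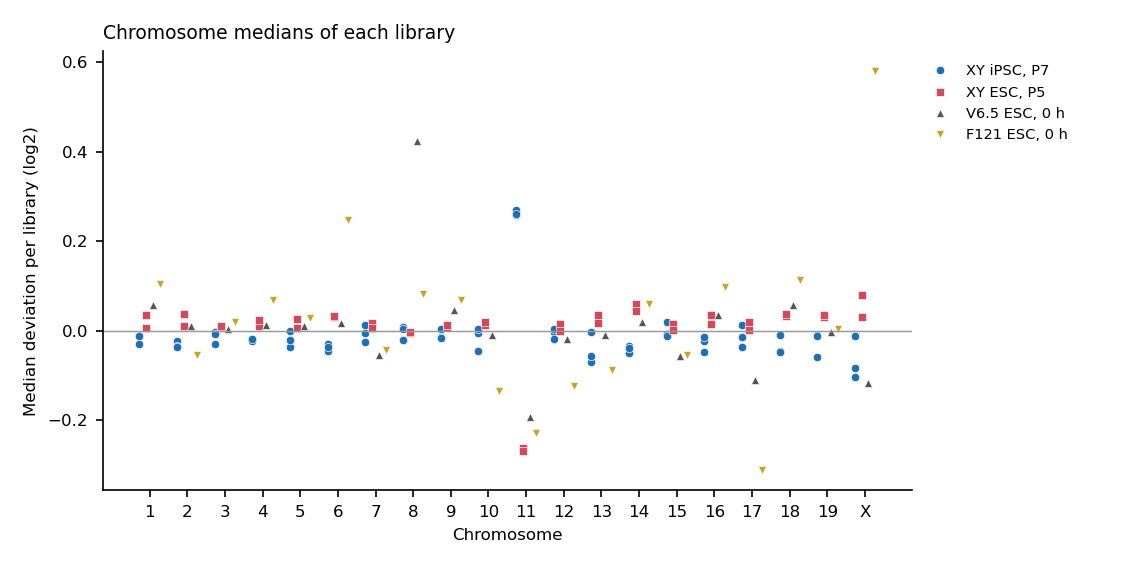
Median log2 deviation of each library (y axis) for the genes of each chromosome (x axis), relative to the mean of the XY iPSC and XY ESC groups and to the library's own median over all genes; each point is 1 library. On chromosome 11 the 3 XY iPSCs lie at 0.26 to 0.27 and CM3 and CM7 at -0.26 and -0.27, while V6.5 stands out on chromosome 8 at 0.42.

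Among the pluripotency genes more fell than rose in the iPSCs, Pou5f1 (Oct4) among those that fell, while Sox2, Nanog, Esrrb and Zfp42 did not pass the test. Of 24 naive pluripotency genes, which mark the ground state of the preimplantation epiblast, 4 rose and 8 fell, and of 16 core pluripotency genes 1 rose and 7 fell, against 12.9% of all genes higher and 13.3% lower. Without CM3 both naive counts were smaller, as were those over all genes. The medians were -0.19 and -0.18, against -0.01 over all genes tested. In XX cells the counts were 3 and 9, and 1 and 5, against 1640 of all 14577 genes higher and 1558 lower.

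Pou5f1, which encodes Oct4, lay at 8.69, 8.57 and 8.71 in LV4, LV8 and LV16 and at 9.33 and 9.10 in CM3 and CM7. The groups did not overlap, and the iPSCs were 1.47-fold lower (log2 difference -0.56 ± 0.10 SE, limma adjusted p = 0.00135). Sox2, its partner, ran from 8.14 to 8.63 in the iPSCs and was 8.48 and 8.40 in the ESCs, so the ranges overlapped (-0.02 ± 0.18). Nanog lay at 8.42, 8.63 and 8.74 against 8.62 and 8.40, also overlapping (0.09 ± 0.24). The nuclear receptor Esrrb (-0.13 ± 0.15), the zinc-finger marker Zfp42 (0.27 ± 0.16) and Klf2 (-0.08 ± 0.11) did not pass the test either.

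Of the 6 reprogramming factors tested, Klf4 rose and 4 fell, against 12.9% of all genes higher and 13.3% lower. The median difference of the 6 was -0.57, and relative to V6.5 alone it was 0.31. The values of Klf4 were 8.27, 8.53 and 8.56 against 7.71 and 7.55, with V6.5 at 7.76, and the difference was 0.83 ± 0.13 (limma adjusted p = 7.99e-04). All 3 iPSC lines lay above both ESC lines and V6.5. Myc went the other way, with 4.25, 3.67 and 4.03 in the iPSCs against 5.38 and 5.70 in the ESCs (-1.56 ± 0.25, limma adjusted p = 7.75e-04), and V6.5 was at 5.33. The other family members Mycn (-0.57 ± 0.10) and Mycl (-0.76 ± 0.22) fell too, but relative to V6.5 alone the differences were 0.63 and 0.46. The call for Mycl was lost without CM7 (-0.34, limma adjusted p = 0.293). Reads from an integrated reprogramming cassette cannot be told apart from those of the endogenous genes in this table.

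Among the naive genes the largest differences were decreases. Morc1, a chromatin gene of germ cells, had 5.54, 5.78 and 5.90 in the iPSCs and 7.94 and 7.49 in the ESCs (-1.97 ± 0.31, limma adjusted p = 6.54e-04). Tbx3, a T-box factor downstream of LIF, had 5.24, 5.10 and 6.11 against 7.20 and 7.24 (-1.74 ± 0.30). The Krüppel-like factor Klf5 was at 6.67, 6.68 and 7.03 against 7.85 and 7.71 (-0.98 ± 0.12). In none of these 3 genes did the groups overlap, and the passage 13 libraries of the same lines lay higher than at passage 7 for Morc1, at 6.18 to 6.86. Smaller decreases that passed the test included those of Prdm14 (-1.13), Nr0b1 (-0.92), Manba (-0.86) and Ooep (-0.85). Calls for Prdm14, Nr0b1 and Ooep were lost without CM3 (-0.89, -0.70 and -0.71), and those for Prdm14 and Ooep also without CM7 (-1.36 and -0.99). Leaving out LV4 lost all of these calls, LV8 those for Nr0b1 and Ooep, and LV16 that for Ooep. The calls for Prdm14 and Ooep were lost with voom and with no filter too.

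The naive genes that rose beside Klf4 were the LIF receptor Lifr (0.64), its effector Stat3 (0.45) and Dppa3 (0.57), the last a maternal factor that protects DNA methylation. Stat3 lies on chromosome 11, whose median was 0.53. Relative to V6.5 alone Lifr was at -0.47 and Stat3 at -0.02, while Dppa3 was 2.56 higher in the iPSCs. The calls for Stat3 and Dppa3 were lost without CM7 (limma adjusted p = 0.0735 and 0.196) and without CM3 (0.0505 and 0.0635).

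Beside Pou5f1, the core genes that fell were the RNA-binding protein genes L1td1 (-0.99) and Lin28a (-0.84), the chromatin genes Dppa2 (-1.14) and Utf1 (-0.85), the zinc-finger gene Sall4 (-0.60) and the co-repressor gene Trim28 (-0.59). Zfp296 rose by 0.71. The calls for Utf1 and Dppa2 were lost without CM3 (limma adjusted p = 0.135 and 0.0616) and that for Zfp296 without CM7 (0.37, limma adjusted p = 0.285). Relative to V6.5 alone the Utf1 difference was 0.79. Trim28 lay at 10.40, 10.17 and 10.41 in the iPSCs and at 11.03 and 10.81 in the ESCs, with all iPSC lines below both ESC lines.

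Several formative and primed genes, which are switched on as the epiblast prepares for gastrulation, were lower in the iPSCs than in CM3 and CM7. Of 16 tested, 8 fell and 1 rose, against 13.3% of all genes lower and 12.9% higher, with a median of -0.81. Fgf5, the standard marker of that state, lay at 2.93, 1.35 and 1.68 in LV4, LV8 and LV16 and at 5.29 and 6.64 in CM3 and CM7 (-3.98 ± 0.57, limma adjusted p = 3.99e-04), a 15.8-fold difference. V6.5 lay below all of them at -0.78. Foxd3, a factor that opens enhancers at the exit from the naive state, had 1.74, 0.68 and 1.90 against 3.91 and 4.65, with V6.5 at 3.86 (-2.84 ± 0.39). Otx2, which redirects Oct4 in the formative state, had 4.68, 4.47 and 4.25 against 5.65 and 5.59 (-1.15 ± 0.20). The groups did not overlap for Fgf5, Foxd3 or Otx2.

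The other decreases were those of Sox3 (-1.35), Fst (-1.32), Dnmt3a (-0.89), Zic2 (-0.85) and Tcf7l1 (-0.51). Without CM7 the calls for Fst (-0.82, limma adjusted p = 0.331) and Tcf7l1 (-0.44, limma adjusted p = 0.200) were lost, and without CM3 those for Sox3 and Tcf7l1 (limma adjusted p = 0.0765 and 0.0942). Sfrp2, a secreted Wnt antagonist, rose from 2.67 and 3.20 in the ESCs to 4.44, 4.40 and 4.48 in the iPSCs (1.51 ± 0.24). The direction for this list depended on the ESC line. With V6.5 alone as the reference the list's median was 0.89, against 0.01 over all genes tested. Fgf5 (2.76), Otx2 (1.00), Zic2 (0.89) and Sox3 (0.89) changed sign. In XX cells 1 gene rose and 1 fell, against 1640 of all 14577 genes higher and 1558 lower.

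**Figure D3:**
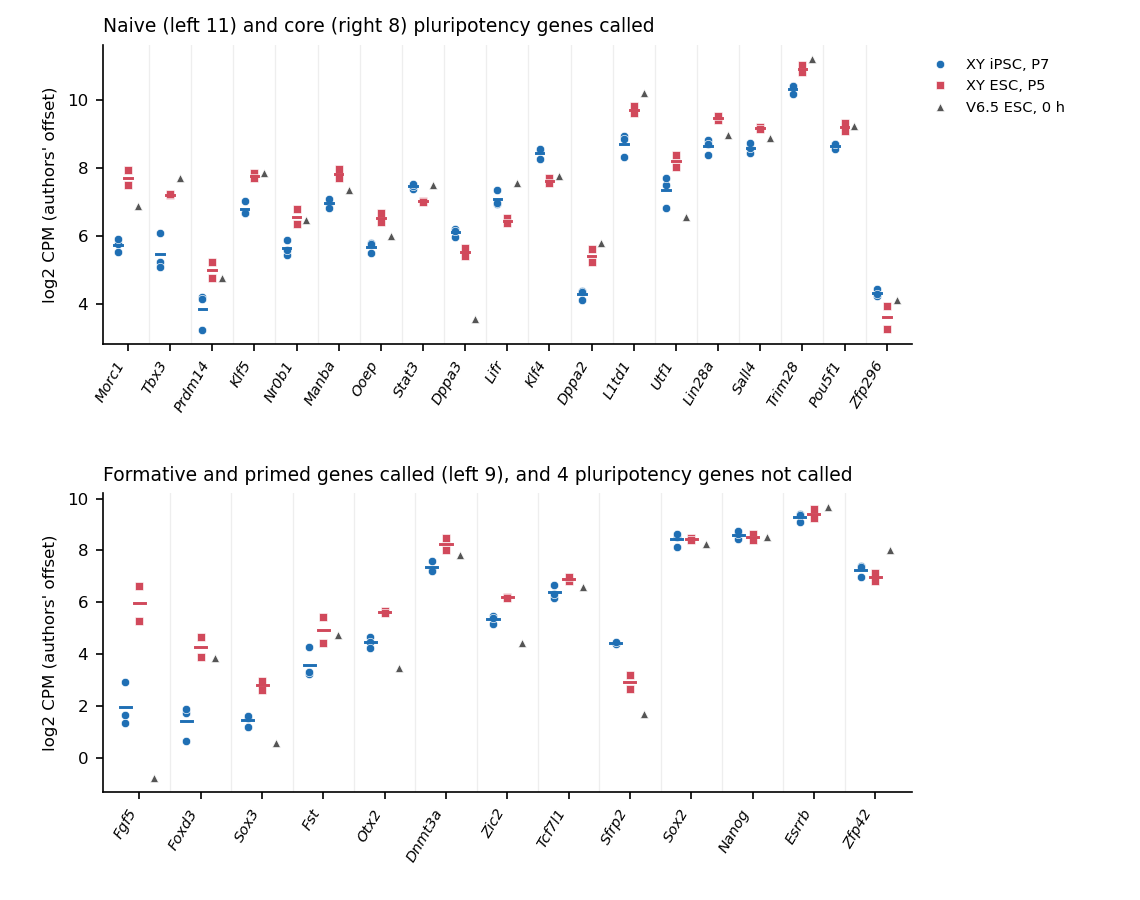
Log2 CPM (y axis) of naive and core pluripotency genes that passed the test (top) and of formative genes with 4 pluripotency genes that did not pass (bottom); points are libraries, bars are group means, and the triangle is the V6.5 library. Fgf5 runs from 1.35 to 2.93 in the iPSCs, 5.29 and 6.64 in the ESCs and -0.78 in V6.5, while Sox2 and Nanog overlap between the groups.

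With both directions counted, imprinted genes changed at about the rate of all genes. Of 24 tested maternally expressed genes 6 fell and none rose (25.0% called). Of 27 paternally expressed genes 5 rose and 1 fell (22.2%). Over all genes 26.2% were called, 12.9% higher and 13.3% lower. The medians were -0.28 and -0.20. Without CM3 fewer maternal genes fell, as over all genes. The members that passed the test were Meg3, Rian, Mirg, Grb10, Ppp1r9a and Osbpl5 among the maternal genes, and Nnat, Mkrn3, Peg12, Slc38a4, Igf2 and Sfmbt2 among the paternal ones.

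The noncoding RNAs of the Dlk1-Meg3 domain on chromosome 12 fell together in the XY iPSCs. Meg3, the long noncoding RNA expressed from the maternal allele, lay at 3.69, 4.01 and 3.68 in LV4, LV8 and LV16 and at 4.79 and 5.28 in CM3 and CM7 (-1.24 ± 0.21, limma adjusted p = 0.00104). Rian, which hosts small nucleolar RNAs, lay at 4.94, 4.13 and 4.44 against 5.77 and 6.23 (-1.50 ± 0.24). Mirg, which hosts microRNAs, lay at 3.29, 2.82 and 3.12 against 4.81 and 5.24 (-1.95 ± 0.25). All 3 iPSC lines were below both ESC lines for each RNA, and all of them kept reads of each: Meg3 had 386 reads over the iPSCs, Rian 651 and Mirg 236.

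Outside the CM lines the pattern was different. V6.5 had Meg3 at 2.53, below every iPSC line, with Rian at 4.35 and Mirg at 4.39, so relative to V6.5 alone Meg3 was higher in the iPSCs by 1.26, Rian was at 0.15 and Mirg was lower by a log2 difference of -1.32. In XX cells the differences were -0.07 for Meg3, 0.04 for Rian and -0.48 for Mirg, none past the test, and the contrast between XX and XY did not pass either (limma adjusted p = 0.207, 0.142 and 0.193).

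On the paternal side of the domain, the Notch-ligand-like gene Dlk1 was too low to be tested, with 9, 11 and 9 reads in the iPSCs against 1 and 2 in the ESCs. That is a ratio of 8.10 after scaling to library size (95% counting interval 2.51 to 41.6, exact), and the 3 reads of the ESC lines set its width. The thyroid hormone deiodinase gene Dio3 lay at 0.39, -0.90 and 0.45 against 1.15 and 1.24 and did not pass (-1.21 ± 0.46, limma adjusted p = 0.0712). In XX cells Dio3 did fall, as the only 1 of the 4 tested genes of the domain.

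Nnat, a brain-expressed membrane protein gene, had the largest increase among the imprinted genes that passed the test. It lay at 5.85, 5.62 and 5.39 in the iPSCs against 2.85 and 4.48 in the ESCs (1.96 ± 0.56, limma adjusted p = 0.0219), with V6.5 at 1.96. The 2 ESC lines differed by more than a factor of 2, and without CM3 the call was lost (1.14, limma adjusted p = 0.249). In XX cells the difference was 2.81 in the same direction. Grb10, a growth-factor receptor adaptor on chromosome 11, fell against the trend of its chromosome, with 6.74, 6.30 and 6.41 against 8.11 and 7.03 (-1.09 ± 0.28), and this call was also lost without CM3 (-0.54, limma adjusted p = 0.183). Sfmbt2, a Polycomb-group gene, fell with 6.31, 6.34 and 6.89 against 7.69 and 7.86 (-1.26 ± 0.20, limma adjusted p = 7.96e-04).

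The remaining calls were small or near the threshold. Mkrn3 (1.46), Peg12 (1.28), Slc38a4 (0.63) and the growth factor gene Igf2 (0.62) rose, and Ppp1r9a (-0.47) and Osbpl5 (-0.96) fell. None of these 6 calls held without CM7 (limma adjusted p from 0.0653 to 0.244). The count of paternal genes higher in the iPSCs was 5 with all libraries, 0 without LV8 and 1 without CM3, CM7 or LV16. Igf2 differed by -1.05 in XX cells (limma adjusted p of the difference between contrasts = 0.0903). The widely used imprinting markers H19 (-0.17), Peg3 (-0.08), Snrpn (-0.27), Mest (-0.45) and Igf2r (0.12) did not pass the test.

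**Figure D4:**
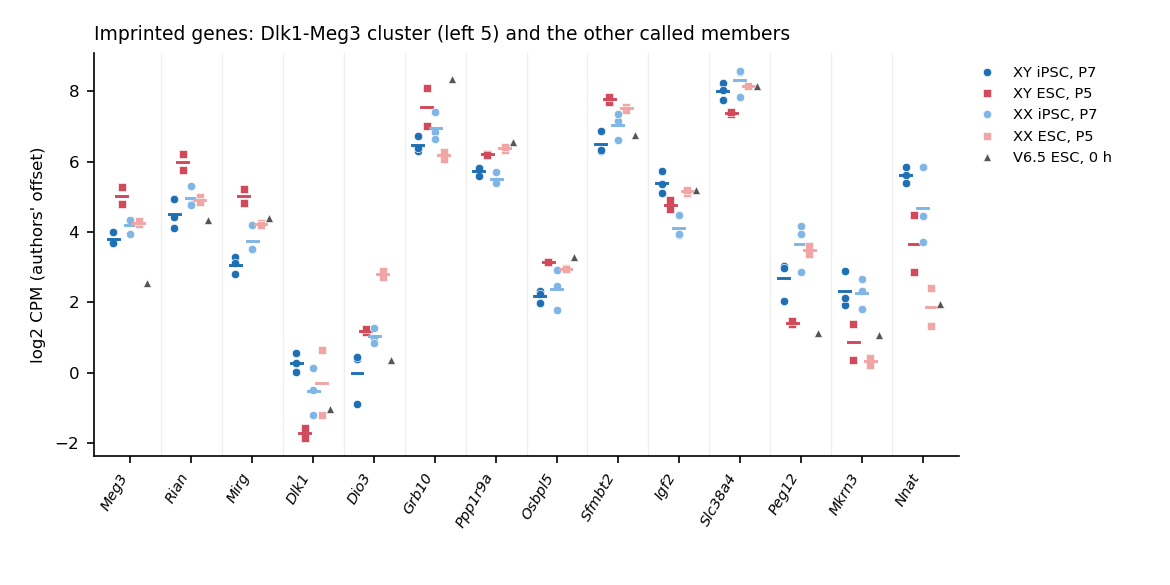
Log2 CPM (y axis) of the measured Dlk1-Meg3 genes and the other imprinted genes that passed the test (x axis); points are libraries of the XY and XX iPSCs and ESCs, bars are group means, and the triangle is V6.5. Meg3, Rian and Mirg lie lower in the 3 XY iPSCs than in CM3 and CM7, while V6.5 has Meg3 at 2.53.

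Markers of differentiated cells were examined next. Of 39 tested fibroblast and feeder genes 24 fell (61.5%, against 13.3% of all genes) and none rose, with a median of -0.94. In 32 of them all iPSC lines lay below both ESC lines, against 27.9% of all genes. The collagen gene Col3a1 lay at 4.65, 4.16 and 4.37 in LV4, LV8 and LV16 and at 6.33 and 5.99 in CM3 and CM7 (-1.76 ± 0.19, limma adjusted p = 5.30e-05). The matrix protease gene Mmp3 lay at 2.09, 2.37 and 2.92 against 5.47 and 4.87 (-2.71 ± 0.31). The mesenchymal factor gene Prrx1 lay at 3.95, 3.23 and 3.84 against 5.64 and 5.35 (-1.82 ± 0.21). Each of these genes separated the groups without overlap. Runx1 (-1.76), Col5a2 (-1.49), Cd44 (-1.48), Col6a2 (-1.43) and Acta2 (-1.43) had the next largest decreases, and the call for Runx1 was lost without CM7 (limma adjusted p = 0.0991). Col1a1 fell by 1.09 on the log2 scale although it lies on chromosome 11, while Sparc, on the same chromosome, was at 0.20 and did not pass.

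The level of these genes varied widely over the reference libraries. Their summed level was 5011, 4977 and 4626 CPM in LV4, LV8 and LV16, 6025 and 7104 CPM in CM3 and CM7, and 7590 CPM in V6.5, which was grown without feeders. At passage 13 the same iPSC lines gave 10504, 7456 and 6142 CPM, and Col1a1 lay there at 8.79, 8.18 and 7.08, against 7.17 and 7.47 in CM3 and CM7. In XX cells 20 genes of the list fell and none rose, against 1558 of all 14577 genes lower and 1640 higher. Without CM7 fewer fell in the XY contrast, as over all genes. Fewer cells of such a type and less RNA per cell cannot be told apart in bulk libraries, and the share of remaining feeder cells was not tested.

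Of 10 blood-cell genes the macrophage receptor gene Csf1r fell (-1.19) and none rose (10.0% called, against 26.2% of all genes), and the Csf1r call was lost without CM3 or CM7 (limma adjusted p = 0.137 and 0.132). No gene of the 2-cell-like state was high enough to be tested, and of the keratinocyte and liver genes only 1 was high enough to be tested and it did not pass. Of 7 neural genes 3 rose: the oligodendrocyte factor gene Olig2 (2.28), Sox11 (0.65) and Map2 (0.59). That is 42.9% of the list, against 12.9% of all genes higher. The Sox11 call was lost without CM3 (0.38, limma adjusted p = 0.357) and without any one of the iPSC lines, and the Map2 call without CM7 (limma adjusted p = 0.0821). Olig2 lay at 4.45, 4.54 and 4.43 in the iPSCs and at 2.29 and 2.10 in CM3 and CM7 (limma adjusted p = 7.49e-05). It followed the species label over the reference libraries, with 3.61 in V6.5 and no reads in F121, 3.58 to 4.20 in the XX iPSCs and 1.56 and 1.06 in the XX ESCs. The neural progenitor gene Pax6 was lower in the iPSCs but did not pass (-1.26 ± 0.48).

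CM7 stood apart from CM3 in genes of the primitive streak, the site of gastrulation. T (brachyury) was 7.07 in CM7 and 4.05 in CM3, with 5.14, 3.45 and 3.47 in LV4, LV8 and LV16. Cer1, a secreted Nodal and Wnt antagonist, was 5.47 in CM7 and 0.88 in CM3. Fgf8 was 5.50 and 3.29, and Lhx1 5.42 and 1.77. Within the iPSCs LV4 had the highest value of T, Cer1, Fgf8 and Lhx1. The 7 tested genes of this list had a median difference of -1.73 and none passed the test. For T, Cer1, Fgf8 and Lhx1 the gap between CM7 and CM3 was wider than the difference between the group means.

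Of 11 primitive endoderm genes Foxa2 (-3.58) and Dab2 (-0.94) fell, which is 18.2%, near the 13.3% of all genes that fell. Foxa2, a pioneer factor of endoderm, lay at 0.12, -0.37 and 0.01 in the iPSCs and at 2.29 and 4.71 in CM3 and CM7, with the higher value again in CM7. Of 8 trophoblast genes Tfap2a (-2.54), Eomes (-2.04) and Tead4 (-0.76) fell (37.5%, against 13.3% of all genes). The calls for Dab2 and Eomes were lost without CM7 (limma adjusted p = 0.0851 and 0.0661) and that for Tead4 without CM3 (limma adjusted p = 0.0935). Eomes, which is also a streak gene, was 4.59 in CM3 and 5.80 in CM7. Relative to V6.5 alone Foxa2 was at 1.74, so its sign rested on the CM lines.

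Some germline genes that DNA methylation keeps silent in somatic cells were higher in the iPSCs. Of 24 tested 6 rose and none fell, with a median of 0.70. That is 25.0% called, against 26.2% of all genes called and 12.9% higher. In 15 of the 24 all iPSC lines lay above both ESC lines, against 27.2% of all genes. In XX cells 8 rose and none fell, against 1640 of all 14577 genes higher and 1558 lower. In XY cells the count was 10 on the 5 XY libraries alone and 3 with voom. Without CM7 fewer rose, as over all genes. Without LV21 12 rose and 2 fell, and with V6.5 alone as the reference the list's median was -0.06. Since the promoters of such genes are the sites of their silencing, the reference promoters of 3 of the 6 are shown, 250 bases before to 50 bases after the start, from RefSeq on GRCm38.p6 (they are not the lines' own alleles). Capitals mark CACGTG, an E-box, and TCCCGCC, an E2F6-type motif, on either strand. They lie at chrX:134476441-134476740 on the minus strand for Taf7l, chr3:40708621-40708920 on the plus strand for Slc25a31 and chr6:125286032-125286331 on the minus strand for Tuba3a.
Taf7l: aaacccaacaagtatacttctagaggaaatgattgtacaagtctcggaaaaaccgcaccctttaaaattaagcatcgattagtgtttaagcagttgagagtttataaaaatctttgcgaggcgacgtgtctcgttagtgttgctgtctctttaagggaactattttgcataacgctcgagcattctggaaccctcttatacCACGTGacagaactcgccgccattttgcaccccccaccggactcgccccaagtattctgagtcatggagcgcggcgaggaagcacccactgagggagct
Slc25a31: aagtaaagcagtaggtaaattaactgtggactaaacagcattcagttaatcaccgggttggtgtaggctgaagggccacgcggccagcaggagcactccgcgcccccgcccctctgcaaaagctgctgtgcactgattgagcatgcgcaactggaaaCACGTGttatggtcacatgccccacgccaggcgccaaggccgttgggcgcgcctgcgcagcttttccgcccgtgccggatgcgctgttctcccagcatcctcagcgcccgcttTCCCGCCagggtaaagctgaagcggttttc
Tuba3a: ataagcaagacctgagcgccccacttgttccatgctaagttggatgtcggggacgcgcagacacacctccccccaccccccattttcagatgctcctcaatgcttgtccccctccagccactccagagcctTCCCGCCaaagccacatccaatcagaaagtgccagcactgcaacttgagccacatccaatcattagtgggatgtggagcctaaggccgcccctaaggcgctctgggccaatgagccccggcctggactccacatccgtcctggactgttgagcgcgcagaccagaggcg
The windows hold 17 CpG dinucleotides for Taf7l, 22 for Slc25a31 and 12 for Tuba3a, against a median of 7 over all 32851 windows (quartiles 3 and 20). CACGTG occurred in 11 of the 22 tested germline genes with a promoter entry and in 7.15% of all windows, and TCCCGCC in 7 of the 22 and in 11.3% of all windows. Of the 5 risen genes with an entry 2 held CACGTG and 3 held TCCCGCC. Among those not shown, Tdrkh had 25 CpG dinucleotides and neither motif, and Tex14 had 20 and held TCCCGCC.

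Taf7l, a germ-cell subunit of the general transcription factor TFIID, lay at 2.05, 1.60 and 2.41 in LV4, LV8 and LV16 and at 0.02 and -1.27 in CM3 and CM7 (2.64 ± 0.56, limma adjusted p = 0.00472). The groups did not overlap, but the ESC lines held only 12 reads in all, and the call was lost without CM7 (limma adjusted p = 0.0631). Slc25a31, a testis ADP/ATP carrier gene, rose by 1.99 at a limma adjusted p of 0.0457 and lost the call without CM7 or without any one of the iPSC lines. Tuba3a, a testis alpha-tubulin gene, lay at 3.09, 4.18 and 3.99 against 2.09 and 1.85 (1.79 ± 0.44), and its call was lost without CM7 (limma adjusted p = 0.0735). Its near-identical paralogs make the split of reads uncertain.

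The piRNA pathway genes Piwil2 and Tdrkh were better measured. Piwil2, an Argonaute protein of the male germline, lay at 5.68, 5.52 and 5.54 in the iPSCs and 4.65 and 4.37 in the ESCs (1.07 ± 0.20, limma adjusted p = 0.00222), but V6.5 was at 6.24. Tdrkh, a Tudor protein that binds Piwi proteins, lay at 3.59, 3.83 and 3.09 against 1.73 and 2.37 (1.45 ± 0.32), with V6.5 at 3.38, and its call was lost without CM3 (limma adjusted p = 0.0730). Tex14, a gene of germ-cell intercellular bridges on chromosome 11, rose by 0.75. For the DNA methylation machinery 5 of 14 genes fell and none rose (35.7%, against 13.3% of all genes lower): Dnmt3a (-0.89), Trim28 (-0.59), Tet2 (-0.59), Uhrf1 (-0.53), the partner of the maintenance methyltransferase, and that enzyme's own gene Dnmt1 (-0.28). Dnmt3b (-0.49), Dnmt3l (-0.31) and Tet1 (0.20) did not pass the test. The Tet2 call was lost without CM3 (-0.36) and without any one of the iPSC lines. With CM3 left out fewer genes of the list fell, as over all genes, and a call in the other direction appeared. Relative to V6.5 alone Uhrf1 was at 0.13 and the list's median was -0.29.

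Several immediate-early genes, which respond within minutes to growth factors, serum or handling, were higher in the iPSCs. Of 18 tested 8 rose and none fell (44.4%, against 12.9% of all genes higher), with a median of 0.60. Fos lay at 9.43, 9.62 and 9.26 in LV4, LV8 and LV16 and at 6.45 and 7.86 in CM3 and CM7 (2.28 ± 0.28, limma adjusted p = 1.23e-04). Egr1 lay at 9.23, 9.45 and 9.27 against 7.65 and 8.15 (1.41 ± 0.16). For both genes the iPSC lines lay close together and above both ESC lines. Fosb (2.22), Btg2 (1.80), Egr2 (1.36), Jun (1.23), Dusp1 (1.01) and Klf10 (0.48) rose as well. In XX cells 8 of the genes rose, against 1640 of all 14577 genes. Relative to V6.5 alone the list's median was 1.74, against 0.01 over all genes tested. The level was not stable within a line: at passage 13 Fos was 6.30, 6.28 and 8.64 in LV4, LV8 and LV16. The summed level of the list was 3198 to 3898 CPM in the XY iPSCs at passage 7, 1236 and 1835 CPM in the ESCs and 702 CPM in V6.5. Time from feeding or harvest is not in the labels, and its part was not tested.

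**Figure D5:**
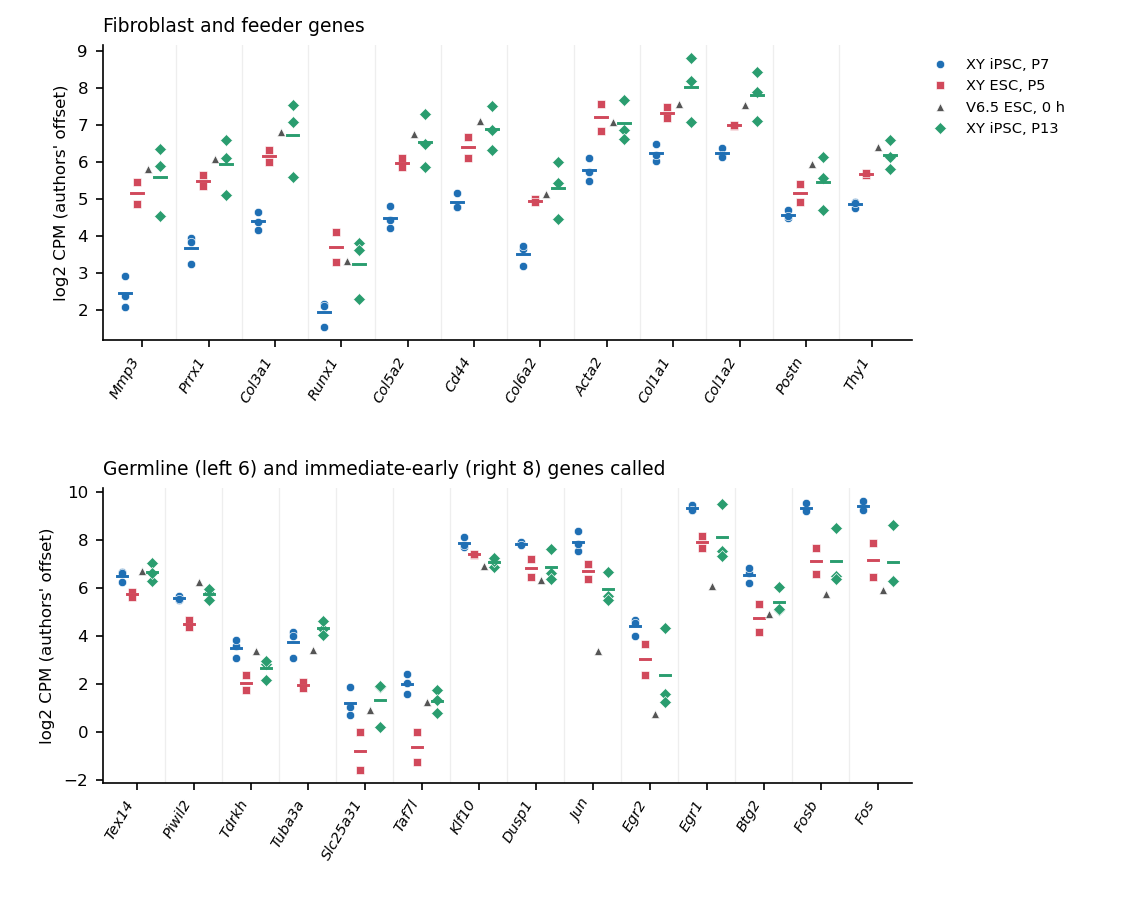
Log2 CPM (y axis) of fibroblast and feeder genes (top) and of germline and immediate-early genes that passed the test (bottom), for XY iPSCs at passage 7 and 13, XY ESCs and V6.5; points are libraries and bars are group means. Col3a1 is 4.16 to 4.65 in the iPSCs at passage 7 and 5.58 to 7.53 in the same lines at passage 13, and Fos is 9.26 to 9.62 at passage 7.

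Mitochondrially encoded transcripts were lower in the XY iPSCs. Of 7 tested 6 fell (85.7%, against 13.3% of all genes), with a median of -0.70. The cytochrome b gene mt-Cytb lay at 11.44, 10.96 and 11.50 against 12.62 and 12.67 (-1.34 ± 0.14, limma adjusted p = 3.94e-05). The complex I genes mt-Nd5 (-0.83), mt-Nd1 (-0.81), mt-Nd4 (-0.70), mt-Nd2 (-0.52) and mt-Nd6 (-0.39) fell, and the cytochrome oxidase gene mt-Co1 (0.08) did not pass. The 7 genes summed to 18076, 18848 and 19850 CPM in the iPSCs and 27640 and 28052 CPM in CM3 and CM7. V6.5 gave 27756 CPM, and the same iPSC lines at passage 13 gave 25905 to 30423 CPM. In XX cells none fell and 1 rose, against 1558 of all 14577 genes lower and 1640 higher. The difference between the contrasts missed the threshold for mt-Cytb, mt-Nd1, mt-Nd4 and mt-Nd5 (limma adjusted p = 0.0903 for each).

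Interferon and antigen-presentation genes gave 4 increases and no decrease among 17 tested. That is 23.5% called, against 26.2% of all genes called and 12.9% higher. The 4 were the antiviral genes Gbp3 (1.62), Oasl2 (1.34) and Bst2 (1.02), and H2-K1 (0.98). H2-K1, a class I antigen gene that is highly polymorphic between mouse strains, lay at 6.16, 6.04 and 6.12 in the iPSCs and at 4.92 and 5.34 in the ESCs. None of these calls held without CM3. Relative to V6.5 alone Oasl2 was at -0.10.

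The largest named increases were in genes at low levels in the ESC lines. Mep1b, a metalloprotease gene, lay at 4.95, 5.12 and 5.14 in LV4, LV8 and LV16 and at 0.73 and 0.98 in CM3 and CM7 (4.22 ± 0.41, limma adjusted p = 2.66e-05). V6.5 was at 2.17, and the same lines at passage 13 were at 5.13 to 5.81. Usp26, an X-linked testis deubiquitinase gene, lay at 7.11, 6.55 and 6.40 against 3.21 and 3.00 (3.58 ± 0.41). It was also high in the XX ESCs, at 7.53 and 7.29, and the XX difference of 0.86 did not pass. The other genes of the 10 were Nxf3 (4.02), Slc15a2 (4.02), Prmt8 (3.75), Unc45b (3.68), Capn11 (3.43), Meiob (3.28), Cnga3 (3.26) and Ace (3.25), and the Meiob call was lost without CM3 (limma adjusted p = 0.0822). Slc15a2 rested on 127 reads against 3, a ratio of 35.5 (95% counting interval 11.9 to 174).

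The largest named decreases included genes with few reads in the iPSCs. Pla2g4e, a phospholipase gene, had 1 read over the 3 iPSC lines and 197 over the ESC lines, a ratio of 235 (95% counting interval 41.7 to 9327). Lamp3 had 2 reads against 197 (ratio 117, interval 32.1 to 977) and Tnn, an extracellular matrix gene, 3 against 176 (ratio 70.0, interval 23.6 to 343). Relative to V6.5 alone Lamp3 was at -0.20 and Tnn at -0.44, both in the same direction but far smaller. Klb, a co-receptor for FGF hormones, lay at -1.76, -2.45 and -0.45 in the iPSCs, 4.01 and 3.28 in the ESCs, -1.82 in V6.5 and 4.12 in F121. Klb was thus low in the libraries labelled Mus musculus and high in the crossed ones, as it also was in XX cells (-5.18). Nefm, a neurofilament gene, behaved differently, with -0.42, 0.18 and 1.76 against 4.84 and 4.84 in XY cells and a difference of -0.78 in XX cells that did not pass. Elobl (-4.36), Smtnl1 (-4.27), Col10a1 (-4.09), Angptl7 (-4.04) and Fgf5, described above, completed the 10.

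The strain label was set beside these differences through V6.5 and F121. V6.5, which has the iPSCs' species label, lay nearer to the iPSC mean than to the CM mean in 44.1% of the 3815 genes called, against 47.3% of all genes tested. Unnamed gene models and pseudogenes gave another picture. They were 10.7% of the genes tested, but 46 of the 50 largest decreases and 16 of the 50 largest increases. Among the 264 unnamed models that fell V6.5 lay nearer to the iPSCs in 187 (70.8%), and F121 nearer to the CM lines in 210 (79.5%). Over all 1565 unnamed models tested the same shares were 57.6% and 58.3%. Among the 133 unnamed models that rose they were 59.4% and 60.9%. Over all calls F121 lay nearer to the CM lines in 70.7%, against 59.8% of all genes tested. V6.5 and F121 are 1 library each from another experiment, so their growth without feeders cannot be told apart from their strain.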

How the data were processed

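RNA from the 5 XY libraries, and from the XX, V6.5, F121 and passage 13 libraries used as reference points, was isolated with TRIzol and sequenced from 1 end after a stranded KAPA library preparation, per the labels' protocols. Read lengths of 36 or 51 bp are given without saying which library had which. Tools listed in the submitters' processing notes, with no role given, are featureCounts, edgeR and STAR 2.5.3a, and the builds listed are mm10 and GRCm38. The authors deposited 1 table of log2 CPM for 16687 gene symbols in 24 columns, written with decimal commas, a unit other than raw counts. Each column is a floor of 0.183 CPM plus whole multiples of 1 step, the value of 1 read. Reads recovered from the steps were whole for 100.0% of values within 0.01 read, and the libraries held 8309171 to 14245900 reads. V6.5 and F121 each have a technical repeat in the labels but 1 column, and how it was combined is not stated.

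The deposited log2 values were fitted unchanged with limma 3.58.1 in R 4.3.3 (lmFit, eBayes with a trend): 4 group means over 10 libraries, 6 residual degrees of freedom, a minimum mean of 1 CPM, two-sided tests, Benjamini-Hochberg adjustment over all 14577 genes tested. Differences are iPSC minus ESC on the authors' offset log2 scale, which understates changes of low genes. Read ratios carry exact (Clopper-Pearson) intervals for counting error only. Python 3.11.15 with pandas 2.3.3, numpy 2.4.6 and scipy 1.17.1 was used for the summaries. The fit was tested on simulated data. Gene positions and promoters came from the RefSeq annotation of GRCm38.p6 (15225 symbols found directly, 362 through a synonym, 1100 not found).

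The libraries compared and the 22 gene lists were chosen with earlier results of these data known. Genes are named if they are label checks, members of the Dlk1-Meg3 domain or reprogramming factors, called members of the pluripotency, imprinted and somatic lists (for fibroblasts the 8 largest), up to 4 called members of each other list, or among the 10 largest non-overlapping increases or decreases of named genes whose higher group mean is at least 4 CPM. Other members named were chosen after their values were seen, as was chromosome 11. Alternatives were pseudocounts of 1 and 5 CPM, no filter or one of 4 CPM, centred medians, voom on the recovered reads, the 5 XY libraries alone, each library left out in turn, and V6.5 added to or replacing the ESC lines. Leaving out chromosome 11 and centring on the other chromosomes were added after seeing the data. One called member of the naive pluripotency list is counted but not reported here.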

Additional observations from a re-analysis of the deposited data

Results flagged for a closer look

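In 3 genes the difference between iPSCs and ESCs was not the same in XX as in XY cells by the limma interaction test over all genes. For Cds2, a phospholipid synthesis gene, the XX difference minus the XY difference was -0.96, from -0.60 in XY and -1.57 in XX cells (limma adjusted p = 0.0376). For Ivns1abp, an actin-associated Kelch protein gene, it was 1.17, from 0.47 in XY and 1.64 in XX cells (limma adjusted p = 0.0330). For the ribosomal protein pseudogene Rps4x-ps it was -7.60, from 0.19 in XY and -7.41 in XX cells (limma adjusted p = 0.0120). Rps4x-ps shares sequence with its parent gene, so its reads are uncertain.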

How the results depend on the processing

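No paired analysis was possible because the iPSC and ESC lines are different lines whose numbers do not pair them. The count of genes called in XY cells, 3815 with all libraries, ran from 2177 to 4854 when 1 library was left out, with the lowest without CM3 and the highest without LV21. The XX count ran from 1302 to 3620, and the count of genes whose difference was unequal in XX and XY cells from 0 to 71, the last without LV21. That count was 5 and 11 with pseudocounts of 1 and 5, 1 with no filter and 7 with voom. On chromosome 11, the median was 0.52 to 0.54 and the genes called higher 394 to 616 over the left-out libraries. The median was 0.49 and 0.37 with the pseudocounts of 1 and 5, 0.51 with no filter, 0.57 with libraries centred on the other chromosomes, and 0.46 with V6.5 as the only ESC reference, where 364 genes were called higher. Using V6.5 alone, 1 library from another experiment assumed to vary like the rest, 46 of the 100 named calls held, 37 missed the threshold and 17 changed sign: Meg3 (1.26), Rian (0.15), Mycn (0.63), Mycl (0.46), Lifr (-0.47), Stat3 (-0.025), Utf1 (0.79), Fgf5 (2.76), Sox3 (0.89), Otx2 (1.00), Zic2 (0.89), Slc38a4 (-0.15), Foxa2 (1.74), Uhrf1 (0.13), Chic1 (-0.060), Oasl2 (-0.10) and Klb (0.27). The cause was not tested. With V6.5 added to the ESC lines, 73 of the 100 held. Of the same 100 calls 28 missed the threshold without CM3, 25 without CM7, 10 without LV4, 19 without LV8, 14 without LV16 and 7 with voom, none of them with a change of sign. Among the XY libraries, leaving out either ESC line lost more of these calls than leaving out any iPSC line. Genes near the floor of -2.45 rest on few reads.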
